A study of Homo sapiens with 24 samples.

Results

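The MAL proteolipids MAL, MAL2, MALL and PLLP and the caveolins CAV1 and CAV2, which share membrane rafts with them, were followed in HCT-116 cells, a human colorectal cancer line. These 6 genes, of 27274 gene names on the array, were found by gene name and were read by 8 probes of 34127. The set was chosen by measured values of these arrays, the lower MALL signal after butyrate, so the comparison of butyrate with no treatment describes the choice and is not tested. The caveolins are a separate protein family from the MAL proteolipids.

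All cells came from 1 stably transfected clone that carries a Tet repressor and an inducible vector for DN-Tcf4, a form of the transcription factor Tcf4 that cannot bind beta-catenin and so opposes Wnt signaling. Cells were left untreated (Ctl), or received 5 mM sodium butyrate (NaB), 4 μg/ml doxycycline (Doxy) or both agents (DoxyNaB). The labels give 17.5 hr of treatment, and the study's methods place doxycycline before the 17.5 hr with or without butyrate, so the time in doxycycline may have been longer. Every treatment was run in 6 experiments, which gave 24 one-colour arrays of total RNA. Since all groups are the same clone, another clone may differ, and fewer cells of a type and less RNA per cell cannot be told apart in such bulk samples.

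MAL and its relatives are small proteins that cross the membrane several times through a fold called the MARVEL domain and gather in cholesterol-rich rafts. MAL is best known from T cells, from myelin and from polarized epithelia, where it carries proteins to the apical surface, while MAL2 serves transcytosis, the route by which proteins cross the cell from one side to the other. MALL, also called BENE, has been found with caveolin-1, and plasmolipin, the product of PLLP, is a myelin and epithelial proteolipid. CAV1 and CAV2 build caveolae, the flask-shaped pits of the plasma membrane. Butyrate, a product of fiber fermentation in the colon, inhibits histone deacetylases.

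The arrays do not read the whole of a transcript. Each probe is 60 bases long, and 3 of them are shown because they define which stretch of CAV1, CAV2 and PLLP the values below come from. Positions are those of the files on NCBI36, and the place of the probes within exons was not analysed here. CAV1 probe A lies at chr7:115986237-115986296 on the plus strand, CAV2 probe A at chr7:115927625-115927684 on the plus strand, and the PLLP probe at chr16:55853315-55853374 on the minus strand. They are written 5′ to 3′ as the files give them.
CAV1 probe A: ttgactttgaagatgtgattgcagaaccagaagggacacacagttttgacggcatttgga
CAV2 probe A: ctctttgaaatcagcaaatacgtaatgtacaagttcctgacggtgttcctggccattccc
PLLP: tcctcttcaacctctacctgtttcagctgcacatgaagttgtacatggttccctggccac

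The MALL probe lies at chr2:110199161-110199220 on the minus strand, the MAL probe at chr2:95083322-95083381 on the plus strand and the MAL2 probe at chr8:120326738-120326797 on the plus strand. CAV1 probe B, at chr7:115987978-115988037, starts 1741 bases after CAV1 probe A, and CAV2 probe B lies at chr7:115935497-115935556. The caveolin genes are neighbours: CAV2 probe A and CAV1 probe A start 58612 bases apart.

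Levels are given on a log2 scale on which 0 is the array's 75th percentile of signal. Between 52.7% and 88.1% of spots on an array were well above background. The mean signal of the negative control spots was at most 115 on 22 arrays, but reached 161 for NaB in experiment 3 and 248.9 for DoxyNaB in experiment 2. Experiments 2 to 6 had 1 slide each, whereas in experiment 1 the butyrate arrays were on another slide and in another scan than the others, and there slide, scan and butyrate cannot be told apart. Among 10 colon epithelial markers, 6 were well above background on all 24 arrays, among them the cytokeratins KRT8 and KRT18 and the gut factors CDX1 and CDX2, whereas VIL1 was so on 5 arrays. Of 6 leukocyte, 4 myelin, 4 endothelial and 5 fibroblast markers, 1, 1, 0 and 0 were well above background on all 24 arrays, and the fibroblast collagen COL3A1 on 0. An array whose spot was left out for an outlier flag counts against a marker here. For that reason the fibroblast collagen COL1A1, well above background on 23 arrays, and the epithelial marker EPCAM, on 22, are not among those counted. The 3 probes against TCF7L2, the gene of Tcf4, read the induction unevenly. In DoxyNaB against NaB, the probe starting at position 114915968 rose by 4.46 ± 0.52 (log2, SD, n = 6, adjusted p = 1.77e-06), the one at 114901475 rose by 2.96 ± 0.88, and the one at 114714311 fell by 1.25 ± 0.65 (adjusted p = 0.00569). With doxycycline alone the first gave 0.30 ± 0.66 (adjusted p = 0.861), so that induction was not detectable at these probes in Doxy. AXIN2, a Wnt target gene, fell by 2.53 ± 0.34 in DoxyNaB against NaB. In Doxy against Ctl it gave −0.58 ± 0.15, under 2-fold but with an adjusted p of 0.00290 by limma, and was higher in 0 of 6 experiments.

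MALL, the gene the set was chosen for, fell 23.5-fold with butyrate in cells that also received doxycycline. The level in Ctl was 3.72 at the lowest, 3.87 at the median and 4.08 at the highest, and in Doxy 3.67, 3.75 and 4.04. With butyrate it was −0.58, −0.47 and −0.20 in NaB and −1.28, −0.62 and −0.39 in DoxyNaB. The 12 arrays with butyrate all lay below the 12 without it, and experiments 1 and 5 were the lowest DoxyNaB arrays. The Ctl and NaB arrays among these served the choice. How many of all tested probes separate in this way was not counted, here or for the caveolin probes below. In DoxyNaB against Doxy, 14449 of the 18980 probes tested had an unadjusted p under 0.05 by limma. In DoxyNaB, MALL fell by 4.56 ± 0.48 relative to Doxy (log2, SD, n = 6), with an adjusted p of 4.46e-15 in limma, in 6 of 6 experiments. Only 4 of the 18980 probes tested had a more negative change. MALL was chosen for its fall with butyrate, with earlier results of these data known, so this p and this rank are a description. Its change in NaB against Ctl, which chose the gene, was −4.30 ± 0.22 or 19.7-fold. The array also holds an entry annotated as similar to MALL, LOC100132330, whose probe was well above background on 9 of 24 arrays, so that signal shared between the copies was not separated here.

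Both caveolins fell with butyrate too. CAV1, the main coat protein of caveolae, ran at 3.55, 3.83 and 4.00 (lowest, median, highest) on CAV1 probe A in Ctl, where 5 arrays were used because the spot of experiment 2 carried an outlier flag. The Doxy levels were 3.60, 3.71 and 3.91, the NaB levels 0.71, 0.96 and 1.22, and the DoxyNaB levels 0.56, 0.72 and 0.91. The groups with and without butyrate did not overlap. CAV1 probe A fell by 2.99 ± 0.22 in DoxyNaB against Doxy (7.96-fold, adjusted p = 6.70e-14).

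CAV1 probe B, spotted 10 times per array, gave the same picture at another place in the gene. It lay at 2.32, 2.55 and 2.73 in Ctl, at −0.75, −0.47 and 0.18 in NaB, at 2.02, 2.38 and 2.56 in Doxy and at −1.36, −0.79 and −0.24 in DoxyNaB. Again no array with butyrate reached the lowest array without it. Its change in DoxyNaB against Doxy was −3.09 ± 0.36, or 8.54-fold, with an adjusted p of 1.72e-14.

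CAV2, the partner of CAV1 in the caveolar coat, was read by CAV2 probe A, which is also spotted 10 times. Its levels were 1.96, 2.10 and 2.49 in Ctl, −0.96, −0.87 and −0.47 in NaB, 1.88, 2.06 and 2.16 in Doxy and −1.28, −1.08 and −0.91 in DoxyNaB. The treatments with butyrate stood entirely below those without it. CAV2 fell by 3.15 ± 0.18 in DoxyNaB against Doxy, or 8.85-fold, with an adjusted p of 1.95e-15. CAV2 probe B was dim: it was well above background on 4 Ctl arrays, 0 NaB arrays, 5 Doxy arrays and 1 DoxyNaB array of 6, so it was not tested. Its measured means were −3.98 in Ctl and −6.07 in NaB. Against the dimmest probes well above background the Ctl mean is 1.497-fold higher. That mean includes Ctl arrays on which the probe was not well above background, so this is not a lower bound.

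MAL2 moved in the same direction by less. Its levels were 1.79, 2.57 and 2.73 in Ctl, 1.12, 1.95 and 2.29 in NaB, 2.00, 2.82 and 2.95 in Doxy and 1.23, 1.83 and 2.11 in DoxyNaB. The groups overlapped, because the arrays of experiment 1 were low under all treatments, but within experiments the DoxyNaB array was below the Doxy array in 6 of 6. The change was −0.95 ± 0.20 or 1.93-fold, with an adjusted p of 2.52e-09, short of the 2-fold threshold. It passed that threshold with normexp background correction (−1.15), with scaling to the median (−1.60), with the percentile taken over probes (−1.04) and in experiments 2 to 4 (−1.03).

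PLLP did not follow. Its levels were −2.54, −1.99 and −1.83 in Ctl, −1.97, −1.78 and −1.55 in NaB, −2.45, −2.33 and −1.99 in Doxy and −2.28, −2.16 and −1.90 in DoxyNaB. The groups overlapped. In DoxyNaB against Doxy the difference was 0.16 ± 0.19, with a 95% interval of 0.01 to 0.32 and an adjusted p of 0.0577, and quantile and median scaling turned it to −0.64 and −0.49. MAL itself was at the edge of detection: it was well above background on 1, 3, 2 and 2 of the 6 arrays in Ctl, NaB, Doxy and DoxyNaB, all in experiments 2 to 4, with levels between −7.25 and −2.85, and it was not tested.

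**Figure D1:**
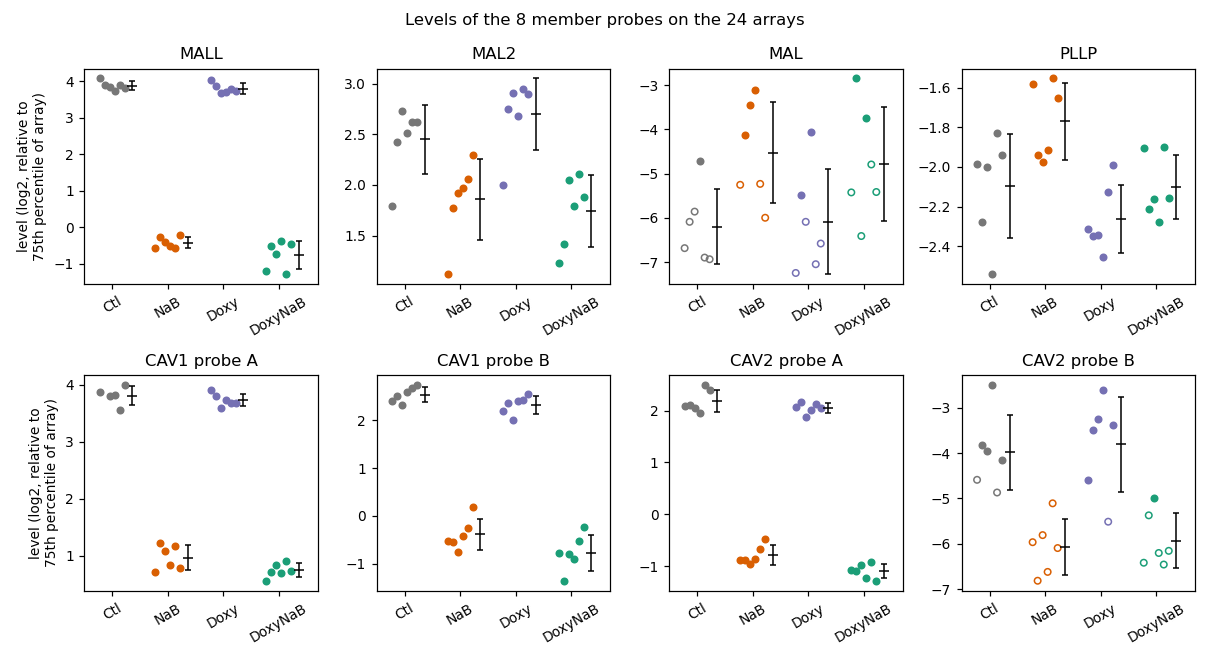
Levels (log2, relative to the 75th percentile of the array) of the 8 member probes in the 4 treatments; each point is 1 array, in order of experiment from left to right, filled where the probe was well above background, and bars show the mean and SD. MALL, both CAV1 probes and CAV2 probe A are lower on all arrays with butyrate, while the PLLP levels overlap and MAL and CAV2 probe B are mostly dim.

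Of the 6 member probes tested, 4 were called lower in DoxyNaB against Doxy (more than 2-fold with an adjusted p under 0.01), where 12.3% of all probes tested were called lower and 18.3% higher. The 4 called probes are 3 genes, since CAV1 has 2 of them. MALL, the gene the set was chosen for its fall with butyrate, is among them. The members were chosen with earlier results of these data known, so this count beside the share of all probes is a description. The share of all calls that were lower was 40.1% here, and 51.9%, 57.1% and 78.9% with normexp, quantile and median scaling, under which these 4 probes were called lower as well, joined by MAL2 with normexp and with median scaling. In NaB against Ctl, 4 of 6 were also more than 2-fold lower, beside 11.3% of all probes, but this contrast served the choice. There the changes were −2.86 for CAV1 probe A, −2.92 for CAV1 probe B, −2.97 for CAV2 probe A, −0.59 for MAL2 and 0.33 for PLLP, and median scaling put MAL2 at −1.50035, past 2-fold. Within scan batches, the MALL change in DoxyNaB against Doxy was −4.28 in experiments 2 to 4 and −4.62 in experiments 5 and 6, and that of CAV2 probe A −3.12 and −3.19. In experiment 1, where the change runs across slides and scans, it was −5.25 for MALL and −3.14 for CAV2 probe A.

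**Figure D2:**
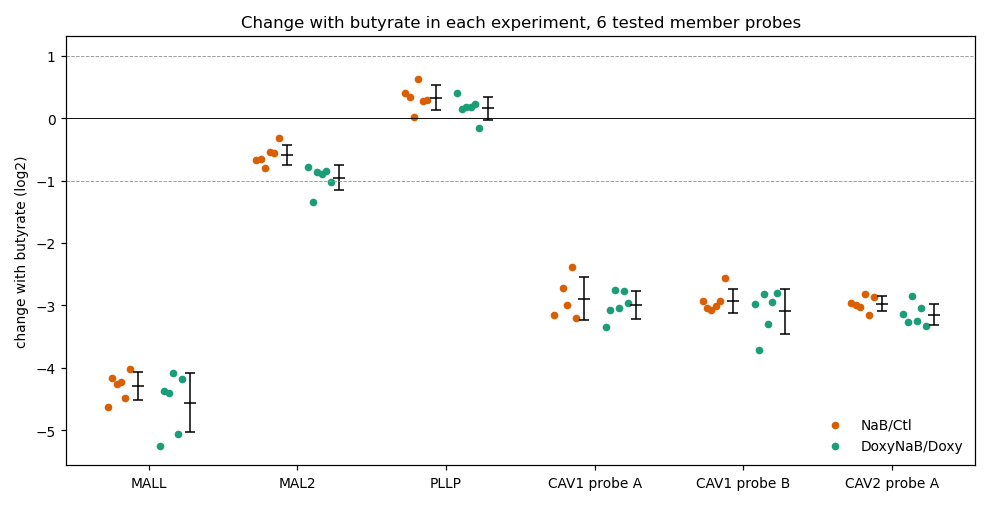
Change with butyrate (log2) in each of the 6 experiments for the 6 tested member probes, without doxycycline (NaB/Ctl, orange) and with it (DoxyNaB/Doxy, green); bars are mean and SD, and dashed lines mark a 2-fold change. MALL lies between −5.25 and −4.01, the caveolin probes lie between −3.72 and −2.38, MAL2 stays nearer the dashed line and PLLP lies near 0.

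Whether doxycycline altered these levels was asked next. The comparisons share arrays: NaB/Ctl and Doxy/Ctl share the Ctl arrays, and DoxyNaB/Doxy and DoxyNaB/NaB share the DoxyNaB arrays. In Doxy against Ctl, limma called 0 of the 6 member probes, beside 0.0948% of all probes tested. Of the 6, 3 had an unadjusted p under 0.05 by limma and 3 by the methods' t-test, which called 0. The differences ran from −0.22 for CAV1 probe B to 0.25 for MAL2, which was higher in 6 of 6 experiments, with an adjusted p of 0.140. For MALL the difference was −0.08, with a 95% interval of −0.35 to 0.20.

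In DoxyNaB against NaB, where 2 of the TCF7L2 probes rose, 0 of 6 member probes were called by limma, beside 0.374% of all probes, and 0 by the methods' t-test, while 5 had an unadjusted p under 0.05 by each. All 6 differences were negative. PLLP differed by −0.33 ± 0.10 (adjusted p = 0.0113), lower in 6 of 6 experiments. CAV1 probe B differed by −0.39 ± 0.26 (adjusted p = 0.0357) and CAV2 probe A by −0.31 ± 0.27 (adjusted p = 0.0454). The MALL difference was −0.33 ± 0.30, lower in 5 of 6, with an adjusted p of 0.202. In the test of whether the butyrate response differed with doxycycline, 0 of 6 were called by limma, beside 1.24% of all probes, and 0 by the methods' t-test, and 1 of 6, MAL2, had an unadjusted p under 0.05 by each. The MAL2 response was smaller without doxycycline by 0.36 ± 0.27, in 6 of 6 experiments (adjusted p = 0.112). For MALL this difference was 0.26, with a 95% interval of −0.13 to 0.65.

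**Figure D3:**
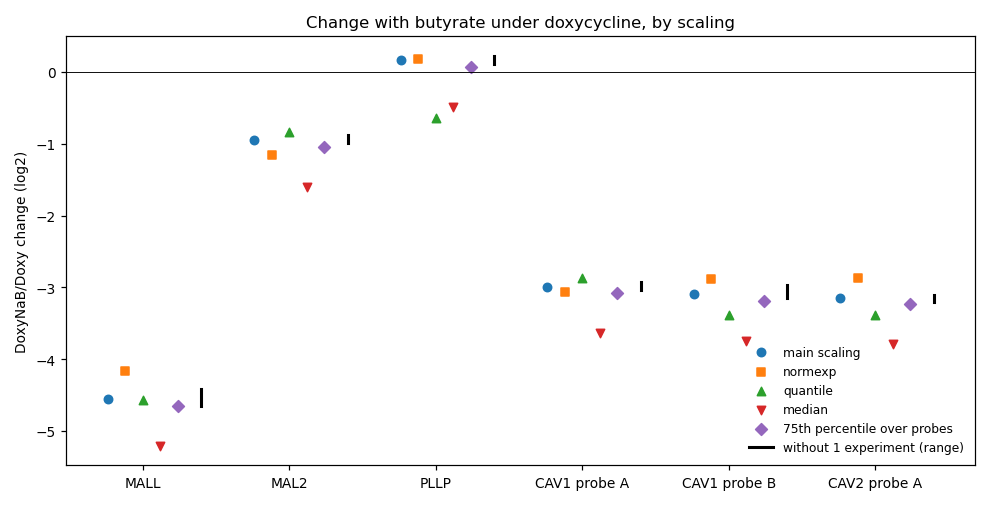
Change in DoxyNaB against Doxy (log2) of the 6 tested member probes under 5 ways of scaling the arrays, with the range over fits that leave out 1 experiment as a black line. MALL stays between −5.20 and −4.17 and the caveolin probes between −3.80 and −2.87 under all 5, whereas PLLP is above 0 under 3 and below 0 with quantile and median scaling.

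The upstream sequences of MALL, CAV1 and CAV2 are shown because these genes fell together. They are the 250 bases before a start site, from RefSeq on GRCh38.p14, in the direction of the gene, and capitals mark GGGCGG, the GC box, on either strand. RefSeq lists 2 starts for MALL. Its promoter 1 is chr2:110118140-110118389 and its promoter 2 chr2:110115823-110116072, both on the minus strand. CAV1 promoter 1 is chr7:116524759-116525008 and CAV2 promoter 1 chr7:116499488-116499737, on the plus strand.
MALL promoter 1: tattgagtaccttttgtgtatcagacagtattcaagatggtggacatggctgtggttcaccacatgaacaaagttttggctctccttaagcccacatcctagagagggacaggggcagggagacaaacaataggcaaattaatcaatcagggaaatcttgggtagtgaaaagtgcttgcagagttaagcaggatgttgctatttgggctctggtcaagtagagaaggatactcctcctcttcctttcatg
MALL promoter 2: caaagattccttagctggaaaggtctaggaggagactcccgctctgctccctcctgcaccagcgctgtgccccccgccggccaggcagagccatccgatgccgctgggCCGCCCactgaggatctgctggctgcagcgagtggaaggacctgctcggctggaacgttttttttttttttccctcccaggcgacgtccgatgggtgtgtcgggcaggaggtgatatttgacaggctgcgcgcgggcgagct
CAV1 promoter 1: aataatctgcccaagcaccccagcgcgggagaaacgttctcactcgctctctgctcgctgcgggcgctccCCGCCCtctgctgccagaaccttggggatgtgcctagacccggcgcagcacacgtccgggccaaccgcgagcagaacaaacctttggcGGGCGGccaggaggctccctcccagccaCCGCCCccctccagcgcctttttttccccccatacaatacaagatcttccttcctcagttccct
CAV2 promoter 1: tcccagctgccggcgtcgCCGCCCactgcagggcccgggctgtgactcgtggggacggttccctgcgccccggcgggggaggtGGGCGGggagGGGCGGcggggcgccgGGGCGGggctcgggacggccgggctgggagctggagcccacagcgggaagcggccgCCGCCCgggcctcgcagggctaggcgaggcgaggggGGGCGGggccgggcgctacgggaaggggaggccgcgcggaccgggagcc

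These windows held 0, 1, 3 and 6 GC boxes in that order. RefSeq lists further starts for the caveolins, not shown: CAV1 promoters 2 and 3 held 3 and 2, and CAV2 promoter 2 held 3. The GC content of these was 63.2%, 73.2% and 70%. PLLP, whose level did not follow MALL, had 4 in its window, and 42.6% of 35116 RefSeq promoters of this length held at least 1. In the windows shown for MALL, CAV1 and CAV2, the GC content was 44.4%, 62.8%, 63.6% and 83.2%, beside a median of 58% over all promoters. The letters ATCAAAG (a core TCF site, found in 2.26% of all promoters), CCAAT (32%), TATAAA (10.7%) and TGACTCA (an AP-1 site, 4.2%), searched on both strands, had no match in the windows of MALL, CAV1, CAV2, PLLP or MAL, the 5 members matched in that table.

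Genes within 500 kb of CAV1 probe A, looked up after their values were seen, changed in different ways. The receptor tyrosine kinase gene MET, 239 kb away, fell by 2.32 ± 0.22 in DoxyNaB against Doxy (adjusted p = 4.01e-14). TES, an adhesion gene on the other side of CAV2, gave −0.27 ± 0.23 (limma adjusted p = 0.00657), under 2-fold. In NaB against Ctl, TES gave 0.44 ± 0.18, and in DoxyNaB against NaB −0.64 ± 0.21 (limma adjusted p = 6.34e-05). CAPZA2, which caps actin filaments, gave 0.04 ± 0.23 (adjusted p = 0.660).

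**Figure D4:**
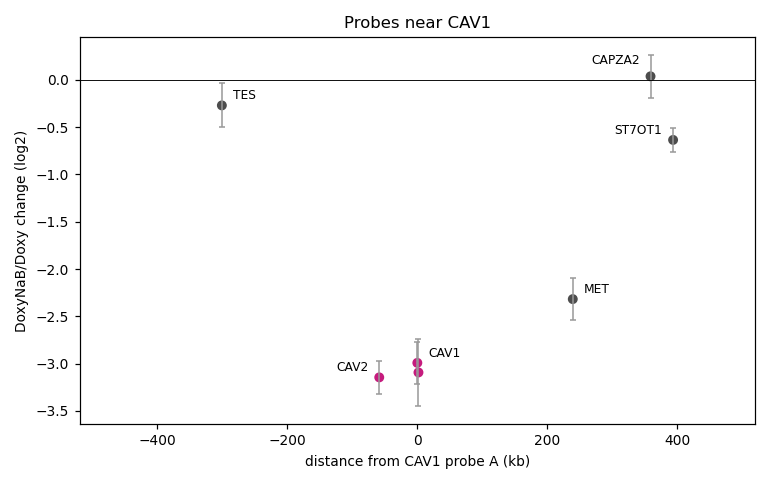
Change in DoxyNaB against Doxy (log2, mean and SD over 6 experiments) of the tested probes within 500 kb of CAV1 probe A, against distance in kb; members are magenta. MET at −2.32 is the only other tested gene here more than 2-fold lower, while TES, CAPZA2 and ST7OT1 lie between −0.63 and 0.04.

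Relatives and partners of the members were then counted in 4 lists. Among 25 other MARVEL domain genes, 20 were tested in DoxyNaB against Doxy, of which 2 were called higher and 9 lower, with a median change of −0.52. Over all 15159 genes tested, 18.7% rose and 12.5% fell, with a median of 0.11. The largest falls were those of MARVELD1, a MARVEL domain protein, at −3.26 ± 0.39 (adjusted p = 1.72e-12), and CMTM7, a chemokine-like factor family protein, at −2.41 ± 0.31 (adjusted p = 7.04e-14). The tight junction gene MARVELD2, tricellulin, changed by −1.99, whereas occludin, OCLN, gave −0.25 (adjusted p = 0.0521). SYP, the synaptic vesicle protein synaptophysin, counted among the 2 called higher, gave 2.28 ± 1.32 but was dim. It was well above background on 4 of 6 Doxy and 6 of 6 DoxyNaB arrays. SYP passed the filter only through DoxyNaB, where its mean was highest, so its call is no support for a rise. The size of that difference is uncertain. CMTM1 rose by 1.17 ± 0.52. With normexp correction, 0 of the MARVEL genes rose and 8 fell.

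In the caveolae list, 11 of 12 genes were tested, of which 2 were called higher and 4 lower, with a median change of 0.39. The tyrosine kinase SRC, which phosphorylates CAV1, fell by 2.43 ± 0.52. The muscle caveolin CAV3, counted among the 4, passed the filter only through Doxy, being well above background on 6 Doxy arrays and 0 DoxyNaB arrays. Its measured means were −4.07 and −5.84 (adjusted p = 0.000629). Doxy is also where its mean was highest, so its call is no support for a fall. Taking DoxyNaB at the dimmest probes well above background gives a bound of 1.488-fold, so a 2-fold fall was not shown. The filamin FLNA rose by 1.17 ± 0.32 and the membrane fission enzyme DNM2 by 1.10 ± 0.27. The caveolar coat factors diverged: CAVIN1 gave 0.64 ± 0.14, under 2-fold, and CAVIN3 fell by 1.31 ± 0.10.

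The flotillin and stomatin family, unrelated to caveolins, had 9 of 11 genes tested, with 1 that rose and 1 that fell and a median of −0.22. STOML1 rose by 2.10 ± 0.21 and STOML2 fell by 1.48 ± 0.31, while the flotillins FLOT1 and FLOT2 gave 0.18 and −0.87, both under 2-fold. Of 30 genes of apical delivery and transcytosis, 24 were tested, of which 2 rose and 4 fell, with a median of −0.07. The Rab27 effector SYTL2 rose by 2.22 ± 0.35 and the secretory granule protein RAB3D by 1.36 ± 0.39. S100A10, the partner of annexin A2, fell by 1.61 ± 0.22, and TPD52L1 by 1.33 ± 0.17. The formin INF2, which acts with MAL2 in transcytosis, gave −0.50 ± 0.26, under 2-fold.

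Over the 4 lists, 7 of 64 tested genes were called higher and 18 lower, SYP and CAV3 included, and 2 and 16 with normexp correction, 5 and 16 with quantile scaling and 3 and 31 with median scaling. With median scaling, 1564 of all 18980 probes rose and 5840 fell. Of the 55 list genes well above background on all arrays used, 5 rose and 16 fell. None of the 64 was called in Doxy against Ctl, in DoxyNaB against NaB or in the test of the difference, by limma or by the methods' t-test, beside 0.0924%, 0.396% and 1.35% of all genes tested by limma. Of the 64, 10, 9 and 5 had an unadjusted p under 0.05 by limma and 10, 8 and 7 by the methods' t-test. In NaB against Ctl, 9 (14.1%) were more than 2-fold higher and 19 (29.7%) lower, beside 21.3% and 11.7% of all genes tested, as a description.

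**Figure D5:**
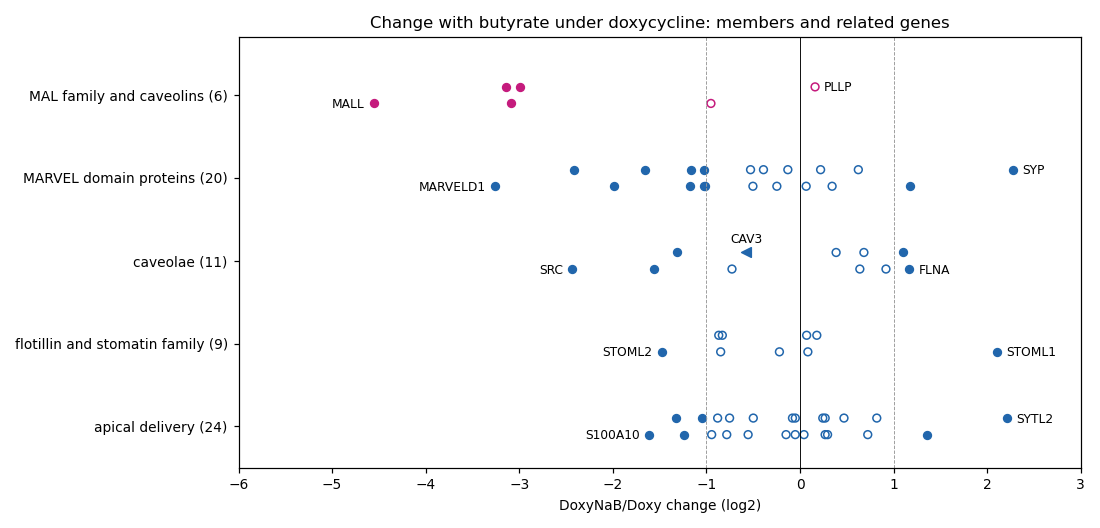
Change in DoxyNaB against Doxy (log2) of the 6 tested member probes (magenta) and of the tested genes of the 4 lists (blue), with the number in brackets; filled points were called, the triangle is the bound for CAV3, and dashed lines mark a 2-fold change. MALL at −4.56 lies to the left of all list genes, of which MARVELD1 at −3.26 is the lowest, and the point for SYP at 2.28 rests on dim signals.

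The genes whose pattern over the 24 arrays was most like that of MALL, by Pearson's r between levels centred on the experiment, were MTHFS of folate metabolism (r = 0.999), IFI35, an interferon-induced gene (0.998), ITPRIPL2 (0.997), MGST2 (0.997) and TRIM7 (0.997). The points are arrays of 4 treatments that share 6 experiments, and no p is given. Of these genes, ITPRIPL2 came nearest to MALL in size, at −4.41 in DoxyNaB against Doxy. MTHFS was also first for CAV1 (0.989 over 23 arrays), followed by POLR3E and PPRC1, while TMA16, LOC646791 and ANP32B led for CAV2 (0.997 each). TSEN15, MTHFD2 and NARS1 were nearest to MAL2 (0.986, 0.985 and 0.983).

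Among members, MALL correlated with CAV2 at 0.993, with CAV1 at 0.986 and with MAL2 at 0.934, and PLLP with the others at −0.57 to −0.54. Levels were not centred on the treatment, so these r, like those above, include the shift with butyrate. They also use the Ctl and NaB arrays that served the choice, and are a description only. The genes nearest to PLLP, the carbonic anhydrase CA2 (0.909), CD4 (0.877) and ARHGAP5-AS1 (0.871), were less like it than the genes named for the other members were like theirs.

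Markers of other cell types moved with butyrate as well. Summed over the list and given as multiples of the 75th percentile, leukocyte markers ran from 0.271 to 0.635 in Ctl and from 0.673 to 1.41 in NaB, and from 0.282 to 0.576 in Doxy and 0.564 to 1.48 in DoxyNaB. Myelin markers ran from 0.804 to 1.26 in Ctl and 0.388 to 0.735 in NaB, and from 0.812 to 1.28 in Doxy and 0.420 to 0.795 in DoxyNaB. Endothelial markers ran from 0.0975 to 0.236 in Ctl and 0.190 to 0.762 in NaB, and from 0.114 to 0.574 in Doxy and 0.215 to 1.14 in DoxyNaB. Fibroblast markers ran from 0.337 to 0.4996 in Ctl and 0.597 to 0.974 in NaB, and from 0.256 to 0.490 in Doxy and 0.735 to 1.15 in DoxyNaB. Colon epithelial markers ran from 210.3 to 252.8 in Ctl and 275.0 to 502.3 in NaB, and from 216.5 to 297.5 in Doxy and 254.1 to 360.5 in DoxyNaB. This last sum mainly follows its brightest markers, the cytokeratins KRT8, KRT18 and KRT19. EPCAM went the other way, at −1.45 (log2) in NaB against Ctl and −1.4997 in DoxyNaB against Doxy. CDX2 also fell, by 0.67 and 0.64. The other tested markers of the list, CDH1, KRT8, KRT18, KRT19 and CDX1, had positive mean changes in both comparisons. The part of the markers of all these lists in the member changes was not tested.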

How the data were processed

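Levels were taken from 24 one-colour arrays of total RNA. The deposited files hold the signal intensity of each spot, as the authors obtained it with Agilent Feature Extraction 9.5.3.1 per the file headers, which corrected background and spatial trend within an array; arrays were not scaled to each other. The deposited files also hold other columns, the 0 or 1 flags for outlier spots and spots well above background. The authors worked in GeneSpring GX with a paired t-test, which was run here as an alternative.

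From these, control spots and outlier-flagged spots were left out, and log2 intensity minus log2 of the array's 75th percentile was averaged over the spots of a probe. A probe was tested if some treatment had it well above background on each of its 6 arrays, which 18980 of 34127 probes and 6 of 8 member probes passed. limma 3.58.1 in R 4.3.3 (lmFit, eBayes) fitted the 4 treatments with the experiment as a block, and p-values were adjusted by Benjamini-Hochberg over all probes tested. A call needed a fold over 2 and an adjusted p under 0.01, and the difference between responses the adjusted p alone. In results with ±, the SD is over experiments. A probe was named from its accession (24827 probes), the file's gene name (7524), a current symbol (1276) or an older symbol (500), with a RefSeq table used for names. A gene in a list is its probe with the highest mean level.

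The labels number the replicate experiments and the methods use a paired test; deviations from the treatment means correlated between arrays of the same experiment in 35 of 36 pairs, the exception being NaB and DoxyNaB of experiment 3 (r = −0.224). Arrays of 1 treatment correlated at 0.881 to 0.993. The number of arrays limits the precision. p-values measure only the spread between these experiments of 1 clone. The scripts were tested on simulated data.

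Named list genes were the 2 most positive and 2 most negative called in DoxyNaB/Doxy per list; MARVELD2, OCLN, CAVIN1, CAVIN3, FLOT1, FLOT2 and INF2 were added after their values were seen. The members and lists were chosen with earlier results of these data known. Alternatives covered background correction, scaling, filter, block, thresholds, test, scan batch and each experiment left out.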

Additional observations from a re-analysis of the deposited data

Results flagged for a closer look

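Over the 8 member probes and 4 treatments, 32 groups of arrays were checked for an array far from the others, and 2 stood out, where chance gives about 1 in 20. The Ctl array of experiment 1 had a MAL2 level of 1.79, with the next at 2.43, and the Doxy array of experiment 1 had 2.00, with the next at 2.68. These arrays shared a slide. Without experiment 1, the MAL2 change in DoxyNaB against Doxy was −0.99, beside −0.95 with it.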

How the results depend on the processing

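Member probes called lower in DoxyNaB against Doxy numbered 4 or 5 under 23 alternatives, and 0 were called in Doxy against Ctl, DoxyNaB against NaB or the difference of responses under any alternative run. Without the replicate block, the counts were 4, 0, 0 and 0 in that order, and MALL changed by −4.56 with an adjusted p of 1.82e-17; leaving out the block changed no call of a member. With each experiment left out in turn, MALL ran from −4.65 to −4.42. Directions reversed for small differences only: with normexp, MALL gave 0.011 and CAV1 probe A 0.17 in Doxy against Ctl, PLLP gave 0.062 in DoxyNaB against NaB and −0.22 in the difference. With median scaling, MAL2 gave 0.020 in DoxyNaB against NaB, and the difference was −0.090 for PLLP, −0.10 for CAV1 probe A, −0.087 for CAV1 probe B and −0.082 for CAV2 probe A. PLLP gave −0.64 with quantile and −0.49 with median scaling in DoxyNaB against Doxy. The list genes more than 2-fold changed in NaB against Ctl numbered 28, and 15 with normexp; the cause was not tested. Median scaling moved the median of all probes from 0.10 to −0.55 in DoxyNaB against Doxy and from 0.17 to −0.74 in NaB against Ctl. PLLP in NaB against Ctl turned from 0.33 to −0.05, −0.49 and −0.58 with normexp, quantile and median scaling. The percentile over probes was chosen after seeing the data. Dim probes limit MAL and CAV2 probe B.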
